A study of Mus musculus with 29 samples.

Results

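Transcripts of 7 subunits of the GABA-A receptor were followed in the caudate nucleus of a mouse model of Huntington's disease at 3 ages. The members were Gabra2, Gabra3, Gabra4, Gabra5, Gabrb1, Gabrb2 and Gabrd, 7 of 19938 genes tested. Each gene was read from the probe set that carried its symbol alone, and Gabrb2, which had 3 such probe sets, from the one with the highest mean over all arrays. HdhQ150 mice carry an expanded CAG repeat knocked into the mouse huntingtin gene Htt, so the expanded protein is made under the gene's own promoter, and their wild-type littermates were the controls. The HdhQ150 groups held 5 mice at 6 months, 6 at 12 months and 4 at 18 months, and the wild-type groups held 5, 5 and 4. Every mouse was a separate animal with an array of its own, 29 in all, of mixed 129/Ola x C57BL6/J background. Males, as labelled, were 1 of 5 HdhQ150 and 2 of 5 wild-type mice at 6 months, 2 of 6 and 1 of 5 at 12 months, and 0 at 18 months. C57BL6/J mice are known to carry a natural variant in an intron of Gabra2 that lowers its RNA. Gabra2 lies on chromosome 5, as Htt does, and which strain's copy of Gabra2 each mouse carried was not analysed here.

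GABA-A receptors are chloride channels opened by the transmitter GABA, and each channel is put together from several subunits around a central pore. The alpha subunits shape how strongly GABA and drugs such as benzodiazepines act, the beta subunits are needed for assembly and help to form the GABA site, and the delta subunit is typical of receptors outside the synapse. Most neurons of the striatum are projection neurons that both release GABA and receive it from their neighbours and from interneurons. Receptors with the alpha2 subunit, encoded by Gabra2, are common at their synapses, and those that join alpha4 and delta, encoded by Gabra4 and Gabrd, carry a steady inhibitory current. Gabra3 and Gabra5 encode alpha subunits that are known from cortical and hippocampal neurons, among others.

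The members lie in clusters of subunit genes, by the order of protein-coding genes in the RefSeq table of mouse assembly GRCm38.p6. On chromosome 5 the order is Gabrg1, Gabra2, Cox7b2, Gabra4 and Gabrb1. Gabra5 stands next to Gabrg3 on chromosome 7, Gabrb2 next to Gabra6 on chromosome 11, and Gabra3 between Magea10 and Gabrq on the X chromosome. Gabrd on chromosome 4 has no other subunit gene among its nearest neighbours. RefSeq promoter windows of 300 bases, from 250 before to 50 after a start site, were matched for 6 of the 7 members, 10 windows in all. Gabrb1 and Gabra3 have a second window each and Gabrb2 has 3, and the first window of a gene is the one shown. The first windows of the 3 members in the chromosome 5 cluster follow, because Gabra2 passed the test between genotypes and the other 2 did not, and then those of Gabra3 and Gabra5, which moved together with age. Capitals mark a GC box, GGGCGG on either strand, or a TATA box, TATAAA on either strand.
Gabra2: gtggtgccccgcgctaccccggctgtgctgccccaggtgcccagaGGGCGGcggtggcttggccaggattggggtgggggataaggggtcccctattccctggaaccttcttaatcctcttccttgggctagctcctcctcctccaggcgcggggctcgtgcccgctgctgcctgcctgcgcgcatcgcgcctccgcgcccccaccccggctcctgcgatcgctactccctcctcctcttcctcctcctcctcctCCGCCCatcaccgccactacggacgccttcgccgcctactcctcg
Gabra4: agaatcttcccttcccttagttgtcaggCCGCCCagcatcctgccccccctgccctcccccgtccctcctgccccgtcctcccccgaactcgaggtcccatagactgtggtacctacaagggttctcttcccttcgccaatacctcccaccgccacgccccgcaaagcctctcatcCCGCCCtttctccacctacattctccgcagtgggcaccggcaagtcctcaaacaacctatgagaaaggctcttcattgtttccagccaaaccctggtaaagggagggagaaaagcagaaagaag
Gabrb1: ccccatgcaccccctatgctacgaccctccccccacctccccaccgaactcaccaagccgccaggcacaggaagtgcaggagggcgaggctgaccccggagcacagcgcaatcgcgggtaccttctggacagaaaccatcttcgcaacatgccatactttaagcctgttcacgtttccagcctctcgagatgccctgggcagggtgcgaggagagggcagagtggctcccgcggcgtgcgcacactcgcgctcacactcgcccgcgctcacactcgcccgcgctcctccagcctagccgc
Gabra3: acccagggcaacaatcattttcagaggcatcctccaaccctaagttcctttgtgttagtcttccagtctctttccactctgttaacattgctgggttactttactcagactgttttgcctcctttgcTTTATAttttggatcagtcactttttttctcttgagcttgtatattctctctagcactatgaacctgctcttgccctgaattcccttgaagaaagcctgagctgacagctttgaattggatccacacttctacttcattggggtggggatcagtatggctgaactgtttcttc
Gabra5: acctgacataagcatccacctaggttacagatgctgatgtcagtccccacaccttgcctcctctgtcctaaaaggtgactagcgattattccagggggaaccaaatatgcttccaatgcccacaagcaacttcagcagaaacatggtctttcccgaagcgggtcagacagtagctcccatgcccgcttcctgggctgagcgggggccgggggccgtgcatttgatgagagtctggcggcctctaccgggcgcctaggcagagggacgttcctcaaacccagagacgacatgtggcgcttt
The Gabra2 window (chr5:71095800-71096099, minus strand, GRCm38.p6) was 70.0% G and C with 25 CpG dinucleotides and 2 GC boxes, and 90.4% of all 32851 windows had a lower share of G and C. Gabra4 (chr5:71658259-71658558, minus strand) also held 2 GC boxes, at 58.7% G and C. The Gabrb1 window (chr5:71657671-71657970, plus strand) lies on the opposite strand with 288 bases between the windows, and held 25 CpG dinucleotides and no motif. Gabra3 (chrX:72656870-72657169, minus strand) was the other extreme among these, at 43.0% G and C with 0 CpG dinucleotides and a TATA box. Gabra5 (chr7:57510010-57510309, minus strand) held 13 CpG dinucleotides and no motif. A GC box was present in 35.7% of all windows and a TATA box in 13.6%. Another 3 motifs were searched on either strand: the cyclic AMP response element TGACGTCA, found in 1.79% of all windows, its shorter core TGACG, which lies within it, in 20.8%, and the Egr site GCGTGGGCG in 0.612%. None of the 10 windows held TGACGTCA or the Egr site, and TGACG was in the first window of Gabrb2 alone, beside a GC box and a TATA box.

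Htt, the targeted gene, was lower in every HdhQ150 mouse than in any wild-type mouse of its age. Its log2 level was 8.65 ± 0.11 (SD, n = 6) against 9.08 ± 0.13 (n = 5) at 12 months. Markers of striatal projection neurons had mean log2 levels between 9.70 and 10.93 in the 29 mice, against array medians of 6.91 to 7.05. Wild-type mouse WT-454 at 12 months was the least like its group, with a mean r of 0.945 against 0.975 to 0.978 in the other 4. HdhQ150 mouse 1023 at 6 months is labelled female but had Xist at 5.95 and the Y-linked Eif2s3y at 8.30, so it did not match its label. At 6 months 1017, WT-1002 and WT-1020 stood apart in choroid plexus markers, with list means of 8.40 to 8.57 against 6.53 to 7.41 in the other 26 mice. Values without the first 2 mice, or without these 3 (an alternative added after the values were seen), are given where they change a call or a direction.

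Between genotypes, Gabra2 was the member that differed most, lower in HdhQ150 mice at 12 and 18 months, and Gabrd was lower to a smaller extent over the 3 ages together. Of the 7 members, 0 passed the threshold at 6 months (1 had an unadjusted limma p under 0.05), 1 at 12 months, 1 at 18 months and 2 in the mean of the 3 ages, all lower in HdhQ150 mice. Over all genes tested, 0.0251% passed at 6 months (13.7% at an unadjusted p under 0.05). At 12 months 0.938% passed, 0.602% lower, at 18 months 0.135%, of which 0.0802% lower, and in the mean of the ages 3.06%, 1.33% lower. The median difference over the members was -0.11, -0.088, -0.088 and -0.079 on the log2 scale, against 0.0062, 0.0059, -0.0037 and 0.00019 over all genes. The members were chosen with earlier results of these data known. The shares and medians here, and the shares with age below, are therefore a description and do not test the members against all genes. The other 5 members did not pass in any of the 4 comparisons. Differences are HdhQ150 minus wild type on the log2 scale from limma, and a member passed where p adjusted over all 19938 genes was under 0.05. In RNA of whole tissue, fewer cells of a type and less RNA per cell cannot be told apart.

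**Figure D1:**
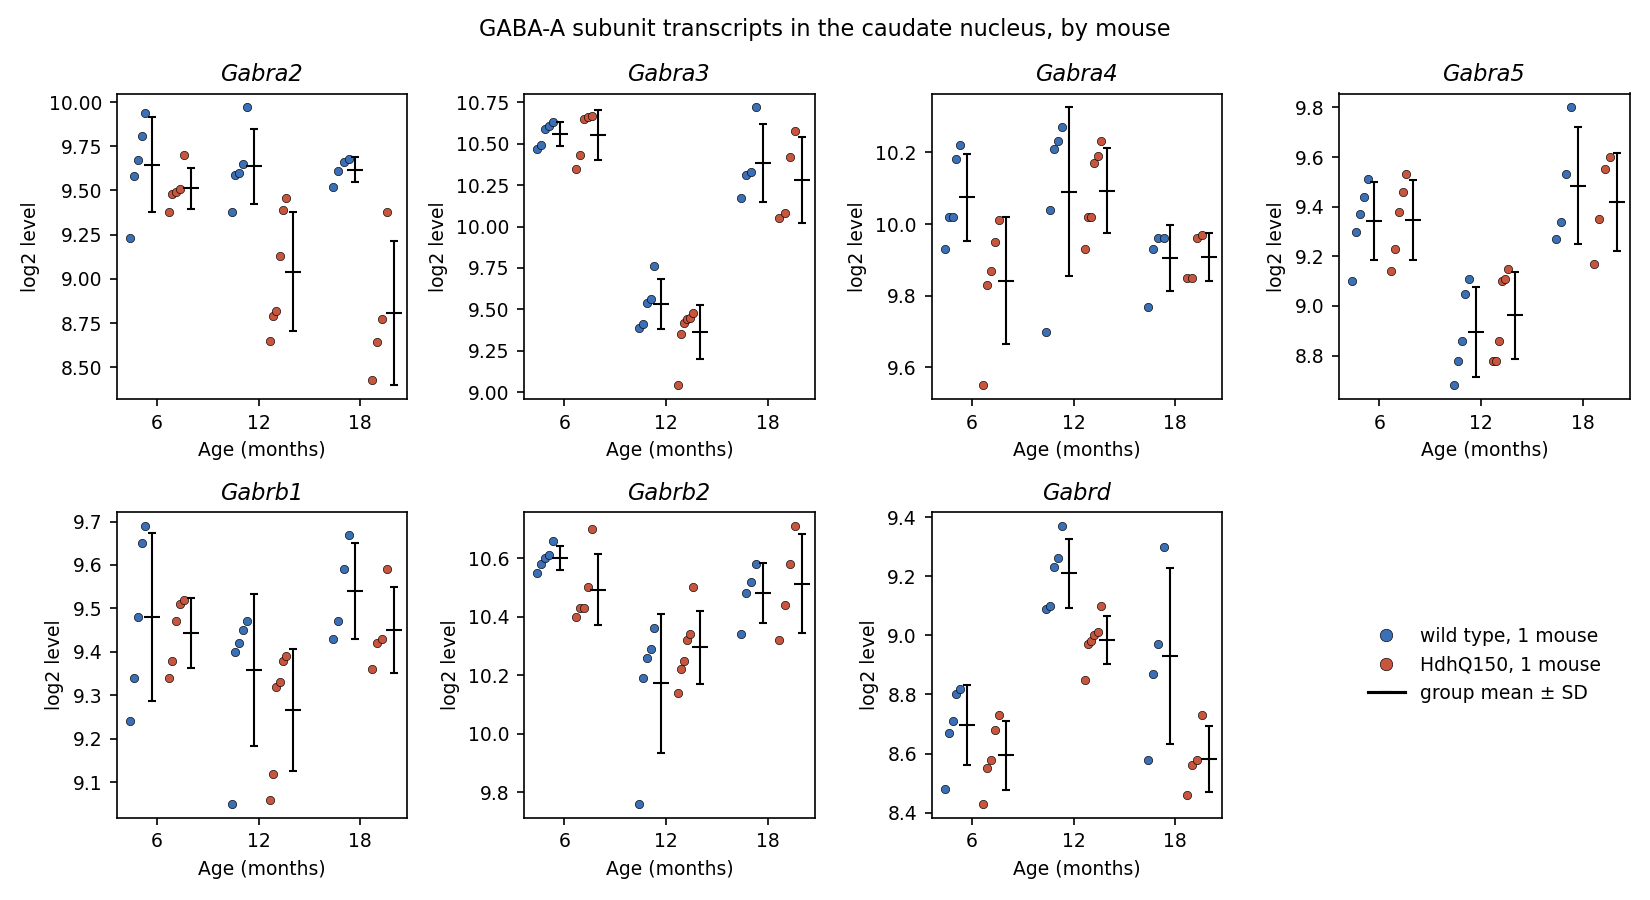
Log2 level of each member (vertical axis) in every mouse, by age in months and genotype; the short bar and whisker beside the points are the group mean ± SD. Gabra2 runs from 8.43 to 9.38 in HdhQ150 mice of 18 months, below all 4 wild-type mice of that age, and Gabra3 is lower at 12 months than at the other ages in both genotypes.

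Gabra2 (probe set 10530406), the alpha2 subunit gene, did not pass at 6 months and was lower in HdhQ150 mice later. At 6 months its log2 level was 9.23, 9.58, 9.67, 9.81 and 9.94 in wild-type mice and 9.38, 9.48, 9.49, 9.51 and 9.70 in HdhQ150 mice. The HdhQ150 values all lay inside the wild-type range, and the difference was -0.14 (SE 0.155, limma adjusted p = 0.749). WT-1002 and WT-1020, which stood apart in choroid plexus markers, had the highest wild-type values of Gabra2, and without them and 1017 it was 0.02 (limma adjusted p = 0.996). At 12 months the wild-type mice had 9.38, 9.59, 9.60, 9.65 and 9.97, and the HdhQ150 mice ran from a lowest of 8.65 to a highest of 9.46, with 8.79, 8.82, 9.13 and 9.39 between them. Thus 4 of the 6 HdhQ150 mice were below every wild-type mouse, and 451 and 526 were above the lowest, WT-454. Gabra2 was 1.51-fold lower at this age, a difference of -0.60 (SE 0.148, 95% confidence interval -0.90 to -0.30, limma adjusted p = 0.0433). At 18 months the wild-type mice had 9.52, 9.61, 9.66 and 9.68, and the HdhQ150 mice had 8.43, 8.64, 8.77 and 9.38. The groups did not overlap, as for 1.5% of all genes in that direction, although mouse 426 stood well above the other 3 HdhQ150 mice. The difference was -0.81 (SE 0.172, interval -1.16 to -0.46, limma adjusted p = 0.0466), a 1.75-fold lower level. Averaged over the 3 ages it was -0.51 (SE 0.0911, limma adjusted p = 0.000982).

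The order of the group means of Gabra2 separated the 4 groups at 9.51 to 9.65, which were all 3 wild-type groups and the 6-month HdhQ150 group, from the older HdhQ150 groups at 9.04 and 8.81. Neighbouring means within each of these sets differed by less than the pooled SD of 0.27, and the step of 0.47 between the sets exceeded it. The mice beside that step overlapped, since HdhQ150 mice began at 9.38 at 6 months and reached 9.46 at 12 months. Within HdhQ150 mice, Gabra2 fell by 0.47 from 6 to 12 months (limma adjusted p = 0.0211) and by 0.71 from 6 to 18 months (limma adjusted p = 0.011). In wild-type mice the same changes were -0.01 and -0.04 (limma adjusted p = 0.97 and 0.919). In HdhQ150 mice the first change was lost without 453 (-0.43), 462 (-0.38), 464 (-0.41) or 1023 (-0.43), and the second without 383 (-0.58). The change of the genotype difference itself was -0.46 from 6 to 12 months and -0.67 from 6 to 18 months, and it did not pass (limma adjusted p = 0.744 and 0.608). Of the 7 members 0 passed this test from 6 to 12, 12 to 18 or 6 to 18 months by limma (3, 0 and 1 at an unadjusted p under 0.05), where 0.00502%, 0.0% and 0.0% of all genes did (6.51%, 2.07% and 8.17% unadjusted). A later onset of the difference is therefore not shown by the test of the change.

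The Gabra2 calls at 12 and 18 months lay close to the threshold. With only the groups compared in the fit, the values were -0.59 and -0.81 and the limma adjusted p was 0.0906 and 0.152. Leaving out a mouse of the groups compared lost the 12-month call without 453 (-0.56), 462 (-0.51), 464 (-0.54), 487 (-0.62), WT-461 (-0.60), WT-488 (-0.61), WT-508 (-0.61) or WT-527 (-0.52). It lost the 18-month call without 383 (-0.68), 412 (-0.75), 415 (-0.80), WT-400 (-0.79), WT-401 (-0.81), WT-414 (-0.84) or WT-431 (-0.79). Leaving out a mouse of another age left the values at -0.60 and -0.81, but moved the adjusted p past the threshold in 7 and 13 cases. At 12 months these were WT-400, WT-401, WT-414, 1001, 1016, WT-1004 and WT-1018, and at 18 months 453, 464, 487, WT-461, WT-488, WT-508, 1001, 1003, 1016, 1017, WT-1004, WT-1018 and WT-1020. Over all 29 mice left out in turn the Gabra2 difference ran from -0.69 to -0.51 at 12 months and was -0.68 or lower at 18 months, with limma adjusted p of 0.0167 to 0.162 and 0.00311 to 0.266. The mean of the 3 ages kept its call in every one of these fits, between -0.58 and -0.47. Without 1017, WT-1002 and WT-1020 together Gabra2 passed at 12 months (-0.59, limma adjusted p = 0.0499), at 18 months (-0.81, adjusted p = 0.0489) and in the mean (-0.46, adjusted p = 0.00954).

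Gabrd (probe set 10519124), the delta subunit gene, was lower in HdhQ150 mice in the mean of the 3 ages, by -0.23 (SE 0.0542, interval -0.34 to -0.12, limma adjusted p = 0.0161), which is 1.17-fold. At 6 months its level was 8.48, 8.67, 8.71, 8.80 and 8.82 in wild-type mice and 8.43, 8.55, 8.58, 8.68 and 8.73 in HdhQ150 mice. These ranges overlapped widely, with a difference of -0.11. At 12 months wild-type mice had 9.09, 9.10, 9.23, 9.26 and 9.37, and HdhQ150 mice ran from 8.85 over a median of 8.99 to 9.10. Here only mouse 451, at 9.10, reached the wild-type range, and the difference was -0.22 (SE 0.088, limma adjusted p = 0.352). At 18 months wild-type mice had 8.58, 8.87, 8.97 and 9.30 and HdhQ150 mice 8.46, 8.56, 8.58 and 8.73. Wild-type mouse WT-431, at 8.58, lay inside the HdhQ150 range, and the difference was -0.35 (SE 0.102, limma adjusted p = 0.261). Without WT-431 the 18-month difference of Gabrd was -0.47 and passed (limma adjusted p = 0.0374). The mean of the 3 ages passed without any 1 of the 29 mice, with values of -0.27 to -0.19.

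**Figure D2:**
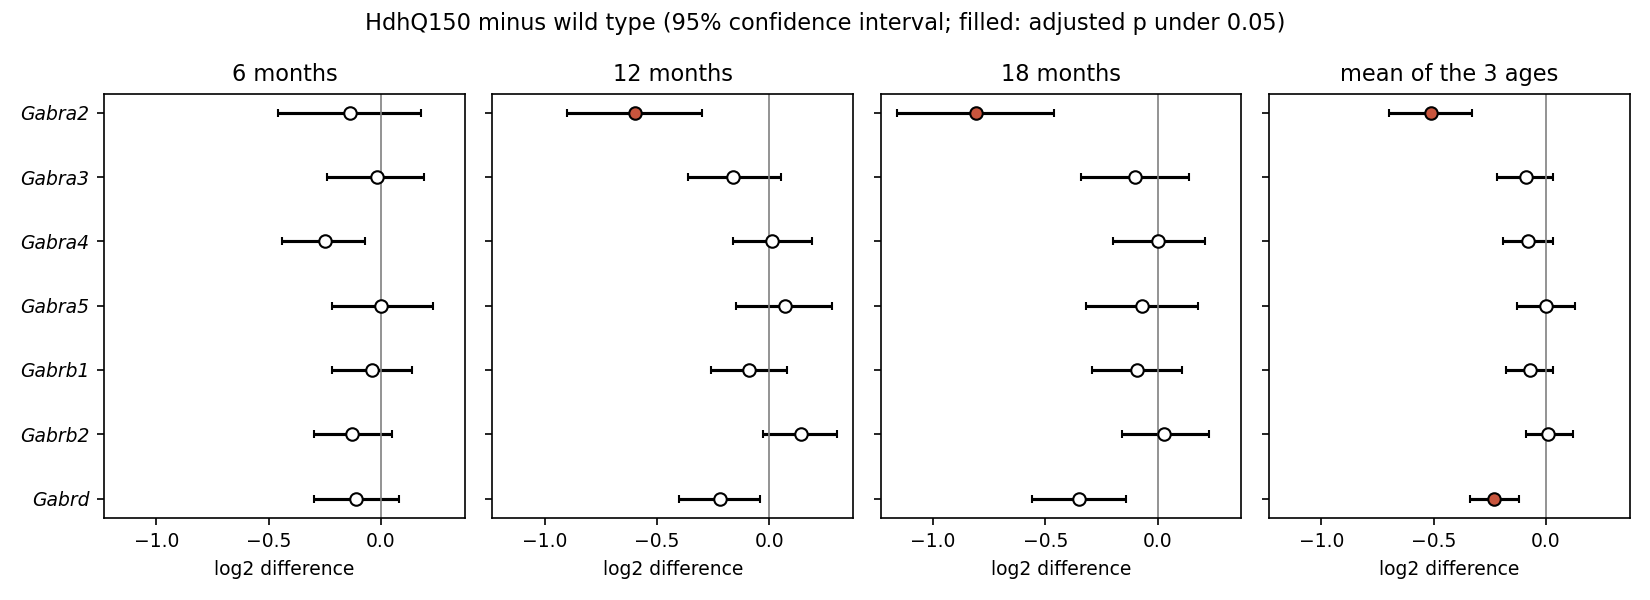
Log2 difference, HdhQ150 minus wild type, of each member at 6, 12 and 18 months and in the mean of the 3 ages; points are limma estimates, bars the 95% confidence interval, and filled points had an adjusted p under 0.05. Gabra2 is filled at 12 months (-0.60), 18 months (-0.81) and in the mean (-0.51), and Gabrd in the mean (-0.23).

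Most markers of striatal projection neurons were also lower in HdhQ150 mice. Of 16 measured markers, 0 passed at 6 months, 5 at 12 months, 4 at 18 months and 10 in the mean of the 3 ages, all of them lower, with median differences of -0.23, -0.28, -0.41 and -0.31. The difference was above 0 for 4, 1, 0 and 1 of the 16. At 12 months that was Tac1, with group means of 10.98 in HdhQ150 and 10.66 in wild-type mice. The mean level of the list ran from 10.46 to 10.62 in HdhQ150 mice of 12 months and from 10.77 to 10.93 in wild type, and from 9.70 to 10.16 against 10.16 to 10.44 at 18 months. The lowest group mean of any of the 16 was 7.79, for Pdyn. With each mouse's mean over this list as a covariate, the difference of Gabra2 in the mean of the ages was -0.45 (limma adjusted p = 0.205) and that of Gabrd -0.10 (limma adjusted p = 0.827). The list itself differed between genotypes, so the covariate takes up part of the genotype contrast. A call lost with it therefore cannot decide whether a member follows the list. Among mice of the same group, the level of Gabra2 gave little relation to that of the list (r = 0.12 over 29 mice, adjusted permutation p = 0.678), and Gabrd gave r = 0.40 (adjusted permutation p = 0.086).

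On the probe set used for each, the other members gave small differences between genotypes. Gabra4 (probe set 10530421), the alpha4 gene, stood at 9.93, 10.02, 10.02, 10.18 and 10.22 in wild-type and 9.55, 9.83, 9.87, 9.95 and 10.01 in HdhQ150 mice of 6 months. The ranges overlapped, and the difference of -0.25 did not pass (SE 0.0888, limma adjusted p = 0.199). Without mice WT-454 and 1023 it was -0.27 and passed (limma adjusted p = 0.0432). At 12 and 18 months Gabra4 differed by 0.01 and 0.00 (intervals -0.16 to 0.19 and -0.20 to 0.21). Gabrb2, the main beta partner in much of the brain, differed by -0.13, 0.14 and 0.03 at the successive ages. Its unused probe sets differed more in the younger mice. Probe set 10375261 gave -0.31, 0.20 and 0.01, and 10375259 gave -0.19, 0.22 and 0.09. None of these passed, and the lowest limma adjusted p over all probe sets was 0.307. Gabrb1, another beta subunit gene, differed by -0.04, -0.09 and -0.09. Gabra3 differed by -0.02, -0.16 and -0.10, and Gabra5 by 0.00, 0.07 and -0.07. In the mean of the ages these 5 members lay between -0.09 and 0.01, and the intervals of all 5 stayed within -0.22 and 0.13.

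Gabra2 was also set against the other measured subunit genes of its cluster within each mouse, a test added after the values were seen. Gabrg1, which encodes a gamma subunit, precedes Gabra2 on the chromosome, and Gabra4 and Gabrb1 follow. The level of Gabra2 minus that of Gabra4 at 6 months was -0.33 ± 0.16 in the knock-in group and -0.43 ± 0.30 in controls (SD, n = 5 each). At 12 months it was -1.05 ± 0.31 (n = 6) against -0.45 ± 0.19 (n = 5), a difference of -0.60 (exact permutation p = 0.013, adjusted p = 0.0857 over 9 tests). At 18 months it was -1.10 ± 0.37 (n = 4) against -0.29 ± 0.14 (n = 4), and every HdhQ150 mouse was below every wild-type mouse. That difference of -0.81 had an exact permutation p of 0.0286, the smallest that 4 against 4 mice can give, and an adjusted p of 0.0857. Against Gabrb1 the differences at 12 and 18 months were -0.51 and -0.72, and against Gabrg1 -0.69 and -0.85, and all of these had an adjusted exact permutation p of 0.0857. None of the 9 comparisons passed after adjustment. Gabra4 itself differed by 0.01 and 0.00 between genotypes at 12 and 18 months, so subtracting it gives the differences of Gabra2 again and adds no separate result. The levels are of different probe sets, so only their change between groups can be read.

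**Figure D3:**
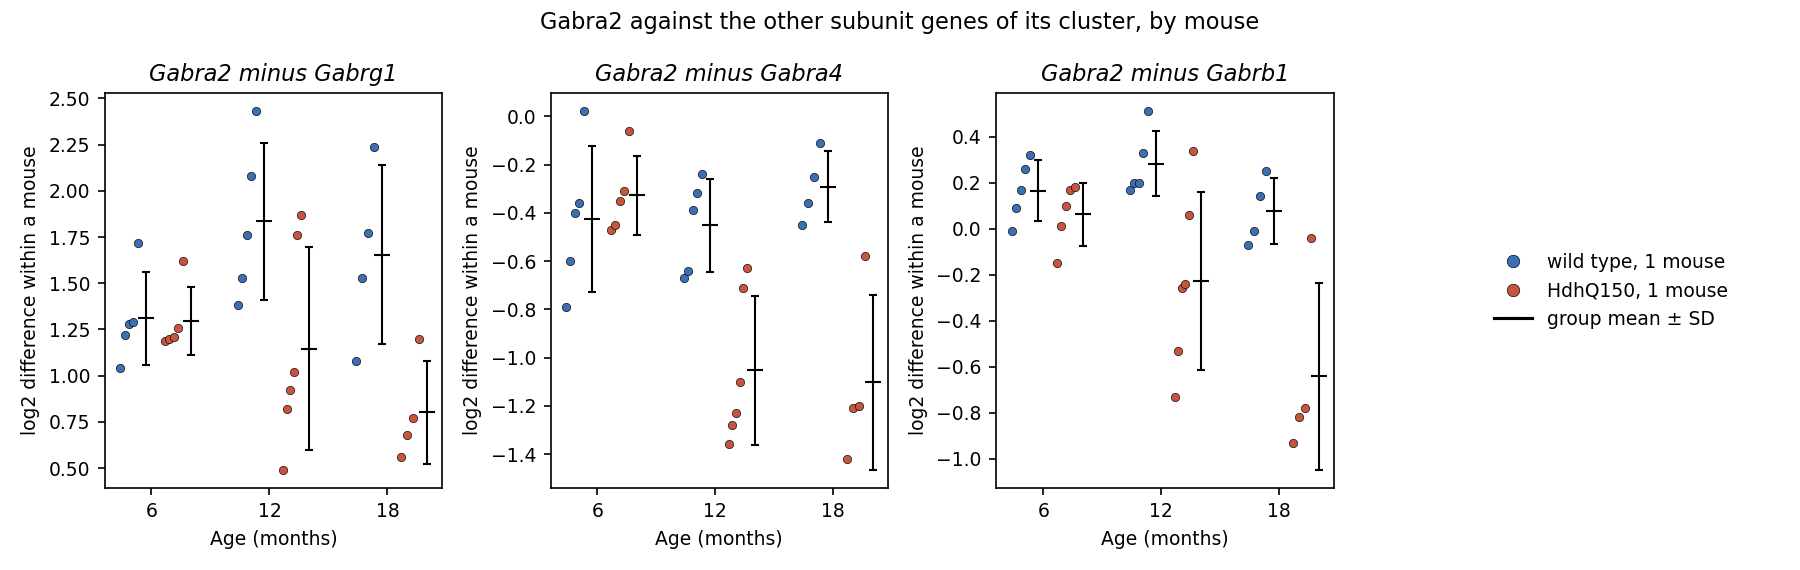
Log2 level of Gabra2 minus that of Gabrg1, Gabra4 or Gabrb1 in the same mouse (vertical axis), by age in months and genotype, with the group mean ± SD beside the points. For Gabra4 the HdhQ150 mice of 18 months lie between -1.42 and -0.58 and the wild-type mice between -0.45 and -0.11.

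With age, Gabra3 and Gabra5 were lower at 12 months than at 6 and 18 months in both genotypes, Gabrd was higher at 12 months, and Gabrb2 was lower at 12 than at 6 months in wild type. From 6 to 12 months 4 of 7 members passed in wild type (1 higher, 3 lower) and 5 in HdhQ150 mice (2 higher, 3 lower), where 25.7% and 23.1% of all genes did. From 12 to 18 months 2 passed in wild type (both higher) and 3 in HdhQ150 mice (2 higher, 1 lower), against 5.87% and 5.79% of all genes. From 6 to 18 months 0 passed in wild type (limma, 2 at an unadjusted p under 0.05) and 1, Gabra2, in HdhQ150 mice, against 6.27% (22.6% unadjusted) and 4.65%. Each age is a different set of animals and the labels give no batch, so age and the handling of each age's samples cannot be told apart. Comparisons that meet at 12 months share the 12-month mice, so a fall and the rise after it are not independent.

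Gabra3 (probe set 10604961), the alpha3 gene, changed most. Its log2 level was 10.47, 10.49, 10.59, 10.61 and 10.63 in wild-type mice of 6 months and 9.39, 9.41, 9.54, 9.56 and 9.76 in those of 12 months. The wild-type mice of 18 months had 10.17, 10.31, 10.33 and 10.72. In HdhQ150 mice it was 10.35, 10.43, 10.65, 10.66 and 10.67 at 6 months, between 9.04 and 9.48 with a median of 9.43 at 12 months, and 10.05, 10.08, 10.42 and 10.58 at 18 months. Every 12-month mouse was below every mouse of another age. Over all genes, 6.95% in wild type and 7.38% in HdhQ150 mice were lower at 12 than at 6 months without overlap, and 4.13% and 4.76% were higher at 18 than at 12 months. Gabra3 fell 2.06-fold in wild type from 6 to 12 months, by 1.04 on the log2 scale (SE 0.104, limma adjusted p = 2e-07), and 2.26-fold in HdhQ150 mice, by 1.18 (SE 0.0994, limma adjusted p = 8.77e-09). It rose by 0.83 (limma adjusted p = 2.5e-05) and 0.89 (limma adjusted p = 8.97e-06) from 12 to 18 months. From 6 to 18 months it was -0.21 and -0.29, and neither passed (limma adjusted p = 0.274 and 0.143).

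Gabra5 (probe set 10563872), the alpha5 gene, took the same course at a smaller size. Wild-type mice had 9.10, 9.30, 9.37, 9.44 and 9.51 at 6 months, and at 12 months 8.68, 8.78, 8.86, 9.05 and 9.11. The 18-month mice had 9.27, 9.34, 9.53 and 9.80. At 12 months only mouse WT-461, at 9.11, reached the range of the 6-month mice. Gabra5 fell by 0.45 (SE 0.11, limma adjusted p = 0.00398) and then rose by 0.59 (SE 0.117, limma adjusted p = 0.0015). In HdhQ150 mice the group means were 9.35 ± 0.16, 8.96 ± 0.17 and 9.42 ± 0.20 (SD, n = 5, 6 and 4). There Gabra5 fell by 0.38 (limma adjusted p = 0.00897) and rose by 0.45 (limma adjusted p = 0.0137). The fall was lost without mouse 1003 (-0.32, limma adjusted p = 0.0564), and the rise without 412 (0.41, adjusted p = 0.0774) or 415 (0.39, adjusted p = 0.0579). In labelled females alone the fall of Gabra5 was -0.38 in wild type and -0.33 in HdhQ150 mice and did not pass (limma adjusted p = 0.0548 and 0.0609).

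Gabrd went the other way. Its group means were 8.70 ± 0.14, 9.21 ± 0.12 and 8.93 ± 0.29 in wild type (SD, n = 5, 5 and 4) and 8.59 ± 0.12, 8.98 ± 0.08 and 8.58 ± 0.11 in HdhQ150 mice (n = 5, 6 and 4). From 6 to 12 months Gabrd rose by 0.51 in wild type (SE 0.0924, limma adjusted p = 0.000263) and by 0.39 in HdhQ150 mice (SE 0.088, limma adjusted p = 0.00176). In both genotypes every 12-month mouse was above every 6-month mouse, as for 6.35% and 6.61% of all genes. From 12 to 18 months Gabrd fell by 0.41 in HdhQ150 mice (limma adjusted p = 0.00721), and the change in wild type was -0.29 (limma adjusted p = 0.0893), or -0.41 without WT-400 (adjusted p = 0.00623). The 18-month wild-type mice spread from 8.58 to 9.30, more widely than any other group of this gene. Without WT-431 the wild-type change of Gabrd from 6 to 18 months, otherwise 0.23, was 0.34 and passed (limma adjusted p = 0.0423).

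Gabrb2 (probe set 10375245) stood between 10.55 and 10.66 in wild-type mice of 6 months and at 9.76, 10.19, 10.26, 10.29 and 10.36 at 12 months, where WT-454 was the lowest. It fell by 0.45 in wild type (SE 0.0855, limma adjusted p = 0.00042), and by 0.33 to 0.49 when each mouse was left out in turn. Gabrb2 in HdhQ150 mice was 10.40, 10.43, 10.43, 10.50 and 10.70 at 6 months and between 10.14 and 10.50 at 12 months, which overlap. The change there was -0.18 (limma adjusted p = 0.101), or -0.20 without WT-454 (adjusted p = 0.0291), and the test of the difference between the genotypes gave 0.27 (SE 0.119, limma adjusted p = 0.724). The other 2 probe sets of Gabrb2, 10375261 and 10375259, gave -0.78 and -0.79 in wild type (limma adjusted p = 0.000226 and 0.000997 over all probe sets). In HdhQ150 mice they gave -0.27 and -0.38 and did not pass (adjusted p = 0.139 and 0.0798). Their change of the genotype difference over this interval was 0.50 and 0.41. Both values exceeded that of the used probe set, and neither passed (limma adjusted p = 0.841 and 0.88). From 12 to 18 months Gabrb2 gave 0.29 in wild type (limma adjusted p = 0.0556), and passed without WT-488 (0.33), WT-400 (0.34), 383, 426 or 1023 (0.29 each). Gabra4 gave -0.21 over that interval (adjusted p = 0.257), or -0.29 without WT-454 (adjusted p = 0.0323). At 12 months Gabra4 ran from 9.93 to 10.23 in HdhQ150 mice, with 10.02, 10.02, 10.17 and 10.19 between, so that only the lowest of the 6 lay within the range of the 6-month mice of that genotype. Gabra4 rose by 0.27 from 6 to 12 months in HdhQ150 mice (SE 0.0845, limma adjusted p = 0.0229) and did not pass in wild type (limma adjusted p = 0.994). That call was lost without 453 (0.23, limma adjusted p = 0.0584), 487 (0.24, adjusted p = 0.0557) or 1017 (0.19, adjusted p = 0.0941), without 1017, WT-1002 and WT-1020 together (0.19, adjusted p = 0.107), and after centring each array on its median (0.21, adjusted p = 0.0985). Gabrb1 (probe set 10522324) did not pass in any comparison. It stood at 9.24, 9.34, 9.48, 9.65 and 9.69 in wild-type mice of 6 months, and at 9.05, 9.40, 9.42, 9.45 and 9.47 in those of 12 months. HdhQ150 mice had 9.34 to 9.52 at the first age and 9.06 to 9.39 at the second. At 18 months the ranges of Gabrb1 were 9.43 to 9.67 in wild type and 9.36 to 9.59 in HdhQ150 mice, so the genotypes overlapped at every age. Its 6 group means lay between 9.27 and 9.54, and each neighbouring pair in that order differed by less than the pooled SD of 0.14.

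The same arrays differed by age in markers of several cell types. The mean over 11 measured markers of cortical excitatory neurons was 8.37 ± 0.26 at 6 months, 7.57 ± 0.37 at 12 months and 8.54 ± 0.27 at 18 months in wild type (SD, n = 5, 5 and 4). In HdhQ150 mice it was 8.31 ± 0.31, 7.26 ± 0.37 and 8.41 ± 0.35 (n = 5, 6 and 4). From 6 to 12 months 8 of the 11 fell in wild type and 9 in HdhQ150 mice, among them the vesicular glutamate transporter gene Slc17a7, at -1.42 and -2.44 on the log2 scale (limma adjusted p = 0.0209 and 0.000167). The group means of Slc17a7 lay between 8.68 and 11.45, and those of Neurod1, another marker of the list, between 4.91 and 6.86, below every array median. Of 16 projection neuron markers 12 and 10 rose over the same interval, and 14 and 15 fell from 12 to 18 months. From 6 to 12 months 3 and 4 of 8 astrocyte markers and 4 and 2 of 7 thalamic neuron markers fell, and 2 and 5 of 6 oligodendrocyte markers rose. Of 9 striatal interneuron markers 1 rose in wild type and 4 fell in HdhQ150 mice. Over all genes 25.7% and 23.1% passed from 6 to 12 months in either direction, so the smaller of these counts lie near that share. From 12 to 18 months 5.87% and 5.79% of all genes passed. The list means of cortical markers at 12 months reached from 6.83 to 8.07 over both genotypes, and those of projection neuron markers from 10.46 to 10.93.

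With the cortical marker mean of each mouse as a covariate, the fall of Gabra3 from 6 to 12 months was -0.80 in wild type and -0.87 in HdhQ150 mice and passed (limma adjusted p = 0.000147 and 0.00044). Under the same covariate that of Gabra5 was -0.19 and -0.05 and did not pass (adjusted p = 0.322 and 0.902). Gabrd gave 0.58 and 0.48 and passed (adjusted p = 0.00349 and 0.0459). Gabrb2 in wild type gave -0.50 and passed (adjusted p = 0.0066). With the projection neuron marker mean instead, Gabra3 gave -0.76 and -0.96 and passed (limma adjusted p = 0.00117 and 4.84e-06), whereas Gabrd gave 0.33 and 0.26 and did not (adjusted p = 0.09 and 0.123). From 12 to 18 months Gabra3 in wild type gave 0.55 with the cortical covariate and passed (limma adjusted p = 0.0303), and 0.43 with the other and did not. In HdhQ150 mice over that interval Gabra3 gave 0.56 and 0.41, Gabra5 0.10 and 0.17 and Gabrd -0.51 and -0.11, and none of these passed. Both covariates were chosen after the values were seen. Both lists themselves changed with age, so a call lost with them cannot decide whether a member follows the list. A call kept cannot decide it either, because the mean of a list measures a cell type's share only roughly.

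**Figure D4:**
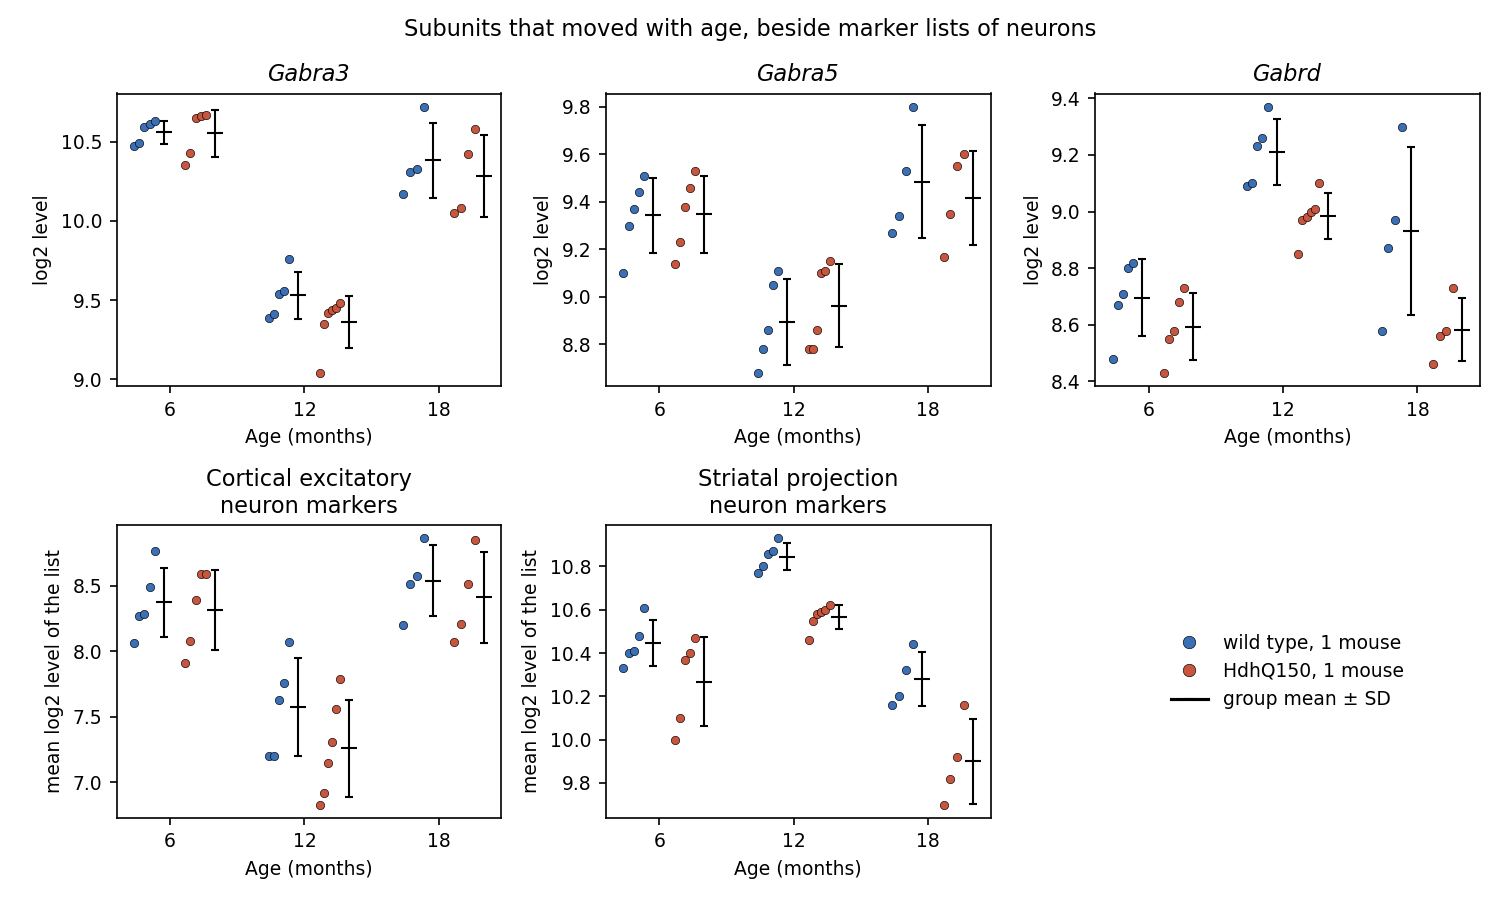
Log2 level of Gabra3, Gabra5 and Gabrd (upper row) and mean log2 level of the cortical excitatory and striatal projection neuron marker lists (lower row) in every mouse, by age in months and genotype, with the group mean ± SD. At 12 months Gabra3 (group means 9.53 and 9.36), Gabra5 (8.90 and 8.96) and the cortical list (7.57 and 7.26) are at their lowest and Gabrd (9.21 and 8.98) and the projection neuron list (10.84 and 10.57) at their highest.

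Among mice of the same group, some members gave a relation to a marker list. Deviations from the group means, with labelled sex removed, were compared over 29 mice for 14 pairs of member and list, with permutation tests. These exchanged the deviations over all mice although group means and sex had been removed, so their p-values are approximate and can be too small. Gabra3 rose with the cortical list (r = 0.56, rho = 0.58, adjusted p = 0.00905 and 0.00826) and went against the projection neuron list (r = -0.55, rho = -0.60, adjusted p = 0.00905 and 0.00826). Gabra5 rose with the cortical list (r = 0.57, rho = 0.51, adjusted p = 0.00905 and 0.0169). Gabra4 rose with the projection neuron list (r = 0.54, rho = 0.52, adjusted p = 0.0092 and 0.0169). Without the 2 mice farthest from the median of the list, the 4 values of r were 0.61, -0.52, 0.55 and 0.44. The other 10 pairs did not pass. The share of all genes that would pass with these lists was not analysed here, and the members were not tested against each other.

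Between the members themselves, 1 of 21 pairs passed a permutation test over the same deviations. The share of pairs that would pass over all genes was not analysed here. Gabra4 and Gabrb2 rose and fell together (r = 0.65, rho = 0.62, adjusted p = 0.00525 and 0.0132), with r = 0.51 without WT-454 and 1023 and 0.52 without the 2 mice farthest from the median of Gabra4. Both genes of that pair had a higher r with other genes, such as 0.90 for Gabra4 with Neto2 and 0.91 for Gabrb2 with Slc17a5. Gabra3 with Gabra5 and Gabra5 with Gabrb1 had r = 0.45 each (adjusted permutation p = 0.111 for both). Gabrd had a negative r with 4 of the other 6 members, down to -0.34 with Gabra3 (adjusted permutation p = 0.201). Gabra2 had r of 0.32 with each of Gabra4 and Gabrb1, the other members of its cluster (adjusted permutation p = 0.201 for both). Without the 2 mice farthest from the median of Gabra2 these values were 0.32 and 0.53, and without WT-454 and 1023 they were 0.23 and 0.25.

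**Figure D5:**
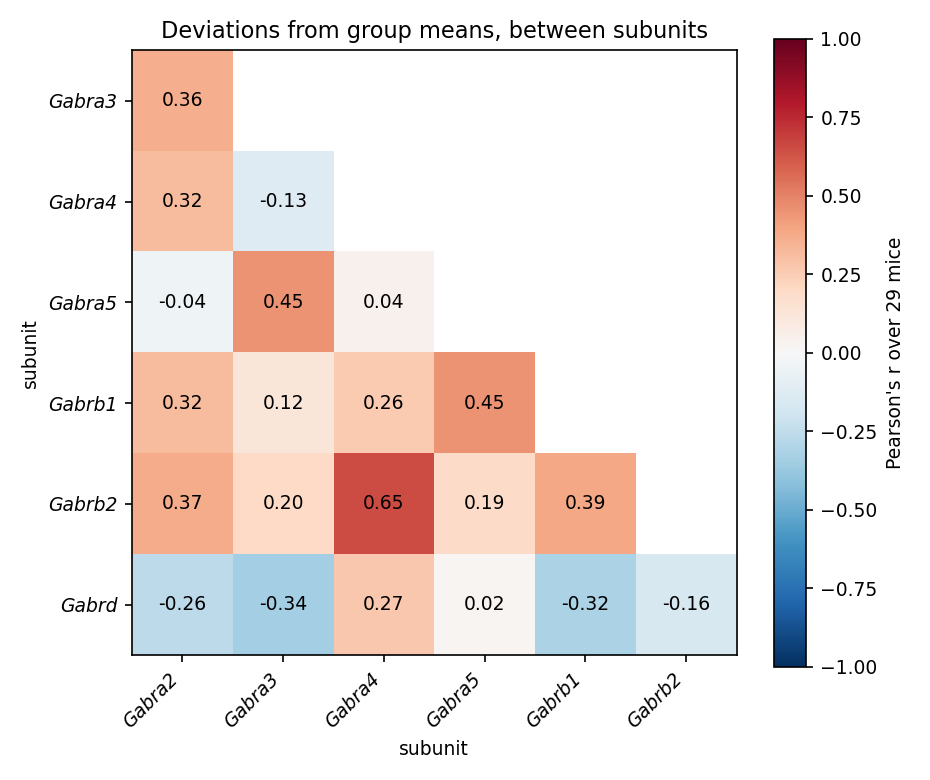
Pearson's r between the 7 members over 29 mice, after group means and labelled sex were removed (colour scale). The pair of Gabra4 and Gabrb2 has the highest value, 0.65, and Gabrd with Gabra3 the lowest, -0.34.

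Over all genes tested, those most like each member by r of these deviations were named as a description, since the highest of so many are high by choice. Gabra2 was most like Chd8 (r = 0.81), which encodes a chromatin remodeller, Alg11 (0.77) and Mycbp2 (0.76). Gabra3 was most like Dscam (0.81), a cell adhesion gene, Aak1 (0.80) and Efr3a (0.79). Gabra4 was most like Neto2 (0.90), which encodes an auxiliary subunit of kainate receptors, Arhgap20 (0.87) and Opa1 (0.86). Gabra5 was most like Arhgap39 (0.81), Tmem63c (0.78) and Frmpd4 (0.78), and Gabrb1 like Fgd4 (0.87), Kif3a (0.80) and Man1a (0.80). Gabrb2 was most like Slc17a5 (0.91), Serinc1 (0.90) and Brcc3 (0.89), and Gabrd like Spata2l (0.80), Atox1 (0.80) and the potassium channel gene Kcnh4 (0.77). Without WT-454 and 1023 these values lay between 0.75 and 0.88.

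Of 56 other genes of GABA signalling in 5 lists, 2 passed between genotypes in the mean of the ages, or 3.57%, near the 3.06% of all genes. Of 9 other measured GABA-A subunit genes 0 passed at any age or in the mean of the ages (limma, with 1, 0, 2 and 2 at an unadjusted p under 0.05), and the largest difference in the mean was Gabre at -0.25 (limma adjusted p = 0.165). Of 8 genes for making, storing, taking up or breaking down GABA, 0 passed (limma, 1, 0, 0 and 2 at an unadjusted p under 0.05), and the vesicular GABA transporter gene Slc32a1 came nearest in the mean of the ages at 0.17 (limma adjusted p = 0.074). Of 25 genes of the inhibitory synapse scaffold and receptor trafficking 2 were higher in the mean of the ages: Nlgn2, an adhesion protein of inhibitory synapses, at 0.17 (SE 0.0452, limma adjusted p = 0.0381), and Trak2, which encodes an adaptor for transport along microtubules, at 0.17 (SE 0.0413, limma adjusted p = 0.0163). Without 1017, WT-1002 and WT-1020 only 1 of these 25 passed. Gphn, the scaffold protein gephyrin that anchors GABA-A receptors, had group means between 9.55 and 9.64. Of 6 GABA-B receptor genes 0 passed (limma, 1, 2, 0 and 2 at an unadjusted p under 0.05), and of 8 chloride transport genes 0 passed (3, 3, 2 and 3).

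With age, 14 of the 56 genes passed from 6 to 12 months in wild type (25.0%) and 12 in HdhQ150 mice (21.4%), close to the 25.7% and 23.1% of all genes. From 12 to 18 months 7 (12.5%) and 9 (16.1%) passed, against 5.87% and 5.79%. From 6 to 12 months 2 of 9 other subunit genes rose in both genotypes, Gabrp (0.27 and 0.29) and Gabrr3 (0.42 and 0.29). The group means of both lay between 5.82 and 6.23, below every array median, and in wild type 1 of the 9 passed without 1017, WT-1002 and WT-1020. Gabrg3, the neighbour of Gabra5, fell by 0.42 from 12 to 18 months in HdhQ150 mice (limma adjusted p = 0.0285). Gabbr2, a GABA-B receptor subunit, followed the course of Gabra3: it fell by 0.60 in wild type and 0.86 in HdhQ150 mice from 6 to 12 months and rose by 0.85 and 0.98 from 12 to 18 months, with every 12-month mouse below every mouse of 6 or 18 months in its genotype. Gad1, which makes GABA, fell by 0.30 and 0.36 from 12 to 18 months (limma adjusted p = 0.0458 and 0.0124), and Slc32a1 by 0.36 and 0.33 (adjusted p = 0.0152 and 0.0235). The astrocyte GABA transporter gene Slc6a11 fell by 0.55 and 0.53 from 6 to 12 months, and Abat, which breaks GABA down, rose by 0.41 in each genotype. Of the 25 scaffold and trafficking genes 6 passed from 6 to 12 months in wild type (1 higher, 5 lower) and 4 in HdhQ150 mice (all lower), where 25.7% and 23.1% of all genes passed. Without 1017, WT-1002 and WT-1020 the wild-type count was 3. Among these genes Iqsec3 changed by -0.48 and -0.79 and Nsf by -0.33 and -0.26.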

How the data were processed

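RNA of the caudate nucleus of 29 mice was hybridised to Affymetrix gene arrays, 1 per mouse. The deposited values are log2 levels per probe set, normalized by the authors with RMA in Expression Console per the submitters' processing notes, with no version stated there. Of 35556 probe sets 21789 had 1 annotated gene symbol, 1621 several and 12146 none, and the probe set with the highest mean stood for each of 19938 genes. RMA compresses low levels, and levels of different probe sets are not comparable.

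Limma 3.58.1 in R 4.3.3 fitted all 29 arrays with 6 group means and labelled sex (22 residual degrees of freedom, moderated with a trend), with two-sided tests for 13 comparisons. P-values were adjusted by Benjamini-Hochberg over all genes, with a threshold of 0.05, and fold changes are 2 to the power of the difference. The fit was tested on simulated data with changes of known size, drawn as independent normal values around the mean of each gene. Such data hold no odd arrays or wrong labels, so that test cannot show what these do. The number of arrays limits the precision. Correlations used deviations from group means with labelled sex removed and 100000 resamples. The deviations were exchanged over all 29 mice, although removing the group means and sex leaves 22 degrees of freedom. The permutation p-values of the correlations are therefore approximate and can be too small.

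The 7 members and all lists were chosen with earlier results of these data known. Named genes were all members, those of the other lists that passed or came nearest, and the 3 genes most like each member. Listed genes without a tested probe set were not analysed here. Alternatives left out each mouse and changed the covariates, scaling, probe set and moderation.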

Additional observations from a re-analysis of the deposited data

Results flagged for a closer look

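Of 42 sets of 4 to 6 mice, 1 for each member and group, 3 had a mouse whose gap to the nearest other mouse took up more of the group's range than Dixon's test allows at its 95% limit. Chance gives such a gap in about 1 in 20 groups. Gabra3 was 9.04 in HdhQ150 mouse 453 at 12 months, where the other 5 mice had 9.35 to 9.48. Gabrb1 was 9.05 in wild-type mouse WT-454 at 12 months, where the other 4 had 9.40 to 9.47. Gabrb2 was 9.76 in the same mouse, where the other 4 had 10.19 to 10.36.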

How the results depend on the processing

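No paired analysis was possible because each mouse has a number of its own and the groups share none. In the mean of the 3 ages the differences of Gabra2 and Gabrd kept their direction and their calls under every alternative listed at the outset, with Gabra2 between -0.58 and -0.47. Of the 7 members, 1 passed at 6 months without WT-454 and 1023. At 12 months 0 passed with only the groups compared, all probe sets, robust moderation, no trend, median centring or either marker list as a covariate. At 18 months 0 passed with only the groups compared, all probe sets, array weights, robust moderation, no trend, median centring, 1023 as male or the projection neuron covariate. That covariate also left 0 in the mean of the ages, 2 from 6 to 12 months and 0 from 12 to 18 months in wild type, and 1 and 0 in HdhQ150 mice. The cortical covariate left 1 from 12 to 18 months in wild type, and 2 and 0 in HdhQ150 mice, and females alone gave 3 from 6 to 12 months in HdhQ150 mice. Leaving out each mouse gave 0 to 1 members at 12 months, at 18 months, and from 6 to 18 months in either genotype, 2 to 4 from 12 to 18 months in wild type, and 3 to 6 from 6 to 12 months and 2 to 3 from 12 to 18 months in HdhQ150 mice. The cause was not tested.

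Differences near 0 changed sign. At 6 months Gabra3 was 0.00 with only the groups compared and 0.01 without the 2 mice, Gabra5 -0.02 in females and -0.07 with the projection neuron covariate, and Gabrb1 0.02 in females. At 12 months Gabra4 was -0.00 without the sex term, -0.10 in females, -0.09 with array weights, -0.02 after quantile normalization, -0.10 without the 2 mice and -0.02 with the cortical covariate, and Gabra5 was -0.00 without the 2 mice and -0.05 with the projection neuron covariate. At 18 months Gabra4 was -0.01 after quantile normalization and with the cortical covariate. In the mean of the ages Gabra4 was 0.09 with the projection neuron covariate; Gabra5 was -0.02 in females, -0.01 after quantile normalization and without the 2 mice, and -0.11 with the projection neuron covariate; Gabrb2 was -0.03 in females, -0.00 with array weights, -0.01 after quantile normalization and -0.04 without the 2 mice. Gabra2 in wild type was 0.13, 0.04 and 0.09 from 6 to 12 months in females, after quantile normalization and without the 2 mice, 0.11 from 12 to 18 months with the projection neuron covariate, and from 6 to 18 months 0.04 in females and with only the groups compared, 0.00 without the 2 mice and 0.01 with the projection neuron covariate. Without 1017, WT-1002 and WT-1020 Gabra2 was 0.02 and Gabrb1 0.10 at 6 months, and Gabra2 in wild type 0.14 from 6 to 12 and 0.11 from 6 to 18 months. Leaving out each mouse in turn gave, at 6, 12 and 18 months and in the mean as they apply, Gabra3 -0.09 to 0.03 (6) and -0.20 to 0.01 (18), Gabra5 -0.07 to 0.05, -0.00 to 0.12, -0.14 to 0.04 and -0.02 to 0.04, Gabrb1 -0.12 to 0.01 (6), Gabra4 -0.10 to 0.06 (12) and -0.04 to 0.02 (18), and Gabrb2 -0.03 to 0.10 (18) and -0.02 to 0.03 (mean). Gabra2 in wild type gave -0.13 to 0.08, -0.09 to 0.06 and -0.17 to 0.03. The cause of these changes was not tested.

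Over all genes tested, 5 passed at 6 months, against 1330 with array weights and 868 without WT-454 and 1023. At 12 months 187 passed, against 103 with only the groups compared and 656 with array weights. At 18 months 27 passed, against 1 with only the groups compared, and in the mean of the ages 610, against 1338, 1644 and 110 with array weights, without the 2 mice and with the projection neuron covariate. Without 1017, WT-1002 and WT-1020, 1 passed at 6 months, 379 in the mean of the ages and, in wild type, 2373 from 6 to 12 and 316 from 6 to 18 months. With age, 5121, 1171 and 1250 genes passed in wild type from 6 to 12, 12 to 18 and 6 to 18 months, against as few as 1480, 3 and 248 and at most 2395 in the last; the lowest came from the projection neuron covariate in the first and second and from only the groups compared in the last. In HdhQ150 mice 4599, 1154 and 927 passed, against 402 to 7098, 0 to 2171 and 187 to 2489, the highest with array weights and the lowest with a marker covariate.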
